A study of Mus musculus with 6 samples.

Results

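Long intergenic noncoding RNAs (lincRNAs) that were expressed in every library of stimulated OT-I T cells are described here. They are the 142 rows of the count tables that GENCODE mouse release M21 types as lincRNA and that reached at least 1 CPM (counts per 1000000 gene counts, with the ERCC spike-in transcripts left out of the total) in each of 6 libraries. They were 142 of 4151 lincRNA rows and of 49671 gene rows. The genes were thus chosen by their measured levels in these libraries, and those levels are given as a description, without a test.

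The study activated T cells from spleen with the peptide SIINFEKL on antigen-presenting cells (APCs) for 48 h, and its title speaks of guiding the inhibitory receptor LAG-3 to the T cell receptor. All 6 libraries carry the OT-I genotype, a transgenic T cell receptor that recognises SIINFEKL, and the labels give naive primary CD8 T cells from splenocytes as the cell type. The groups were BiTS (replicates 3 and 6), BiTS(mut) (replicates 2 and 5) and an isotype control (replicates 1 and 4), and the labels do not expand the first of these names or say what the mutation is. The replicate number is the number in each library's title, and libraries 1 to 3 (the first set) and 4 to 6 (the second set) each hold 1 library of every treatment. The labels do not say what separates these sets, or whether the 2 libraries of a treatment came from separate animals or cultures, so the p-values rest on the spread among the 6 libraries, which may be technical. The labels give neither age nor sex of the mice.

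LincRNAs are transcribed from their own promoters between protein-coding genes, and most are spliced and polyadenylated like messenger RNA but carry no long conserved reading frame. They act in different ways: Malat1 collects in nuclear speckles next to splicing factors, its chromosomal neighbour Neat1 is the scaffold on which paraspeckles assemble, and others serve as the primary transcripts from which microRNAs or small nucleolar RNAs (snoRNAs) are cut. In lymphocytes the best known lincRNA loci are microRNA hosts: Mir155hg, which is induced when T and B cells are activated, Mir17hg, which yields the miR-17-92 cluster that promotes lymphocyte proliferation, and Mir142hg, which is transcribed in blood cells.

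Of the 142 lincRNAs, 7 overlapped annotated microRNA genes on their own strand, 15 microRNA genes in all. The mature sequences below are those of the hosts whose level differed between the sets (below), matched by name to the RefSeq table for GRCm38.p6, so that a reader can see which microRNAs these transcripts carry. Capitals mark the seed, bases 2 to 8, the stretch that pairs with target messages. The tables count the host transcript, and the mature microRNAs themselves were not measured. From Mir17hg on chromosome 14:
miR-17-5p: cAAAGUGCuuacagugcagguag
miR-20a-5p: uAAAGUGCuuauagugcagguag
miR-18a-5p: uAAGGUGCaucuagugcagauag
miR-19a-3p: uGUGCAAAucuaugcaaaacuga
miR-19b-3p: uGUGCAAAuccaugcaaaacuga
miR-92a-3p: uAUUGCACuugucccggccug
From Mir142hg on chromosome 11, Mir155hg on chromosome 16 and Snhg20 on chromosome 11:
miR-142a-5p: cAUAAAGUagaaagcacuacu
miR-142a-3p: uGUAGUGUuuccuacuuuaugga
miR-155-5p: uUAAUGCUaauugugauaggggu
miR-6516-5p: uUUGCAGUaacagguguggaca
Among these, miR-17-5p and miR-20a-5p share the seed AAAGUGC, and miR-19a-3p and miR-19b-3p share GUGCAAA. The other seeds occur in 1 of the matched microRNAs each. Of the remaining hosts, 6720427I07Rik on chromosome 13 carries in M21 3 let-7 precursors whose 5p products share the seed GAGGUAG. Its counted row is shorter (48535523 to 48537822) and holds let-7d but not let-7f-1 or let-7a-1. The level of that row between the sets was not called.

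Gene counts per library ranged from 10813123 to 15239077, which makes 3 counts, the most that a count of 0 allows, equal to between 0.197 and 0.277 CPM. The spike-ins took 3.36 to 4.03% of genes' and spike-ins' counts together in the first set and 5.14 to 7.54% in the second set. Summed T cell markers lay between 2115 and 2694 CPM, while Cd4 and Foxp3 stayed under 1 CPM in every library. Summed markers of dendritic cells lay between 3310 and 4190 CPM in the first set and between 1844 and 2060 CPM in the second, with Siglech at 0 counts, and those of macrophages and monocytes lay between 272 and 332 CPM in the first set and between 87.8 and 92.6 CPM in the second. Of the 14 macrophage and monocyte genes, 7 stayed under 1 CPM in every library (Fcgr1, C1qa, C1qb, C1qc, Cd163, Itgam and Adgre1), so that sum comes from the other genes of the list. Genes that mark presenting cells were thus counted beside those of T cells. In bulk samples like these, fewer cells of a type and less RNA per cell cannot be told apart.

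Expression was sparse across the class. Of the 4151 lincRNA rows, 2470 had 0 counts in every library, 450 had at least 1 count in every library and 3.42% met the rule, against 50.3% of 21811 protein-coding rows that reached the same minimum. Most of the 142 were faint: 102 had a mean under 10 CPM and 7 had a mean of at least 100 CPM. Their median level was 4.75 CPM, or 2.47 RPKM (CPM per kilobase of exon, which allows levels of different genes to be compared), against 34.5 CPM and 7.96 RPKM for the 10962 protein-coding genes that met the same minimum. Names of the Gm, Rik or clone style belonged to 120 of them. Just inside the minimum, by the lowest of the 6 values, lay Prr33 at 1.02 CPM and Gm32200, Gm27162 and Gm13708 at 1.04 CPM each, then Gm4349 at 1.06 CPM. Just outside lay Gm20756 at 0.976 CPM, C030037D09Rik and Gm26637 at 0.964 CPM, and A430073D23Rik and Gm14321 at 0.945 CPM.

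Several well known noncoding RNAs fell outside the rule. Gas5, a snoRNA host whose spliced RNA is degraded when ribosomes reach it, is typed as a processed transcript in M21, as are Snhg1, Snhg3, Snhg5, Snhg8, Zfas1 and Dancr; Gas5 had a mean of 704 CPM. Xist, the RNA that silences one X chromosome in female cells, is typed lincRNA but had between 0 and 6 counts per library.

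The 142 lincRNAs together held 0.693% (replicate 1) and 0.683% (replicate 4) of all gene counts in the isotype libraries. They held 0.606% (replicate 2) and 0.729% (replicate 5) in the BiTS(mut) libraries and 0.637% (replicate 3) and 0.777% (replicate 6) in the BiTS libraries. The treatments overlapped, and the 2 libraries of each treatment differed by more than their binomial 95% intervals (Wilson), which cover counting error only and reach at most from 0.772 to 0.783% in BiTS replicate 6. Over all 142, the sets overlapped, at 0.606 to 0.693% and 0.683 to 0.777%. Without Gm42047, Gm26917, Gm42418 and AU020206, the remaining lincRNAs held 0.254 to 0.276% in the first set and 0.304 to 0.348% in the second. That separation belongs to this choice of rows, which follows no stated rule. AU020206 shares no exon base with another row and has no near-identical copy, while Gm10076, which resembles Rpl41 (below), was kept.

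**Figure D1:**
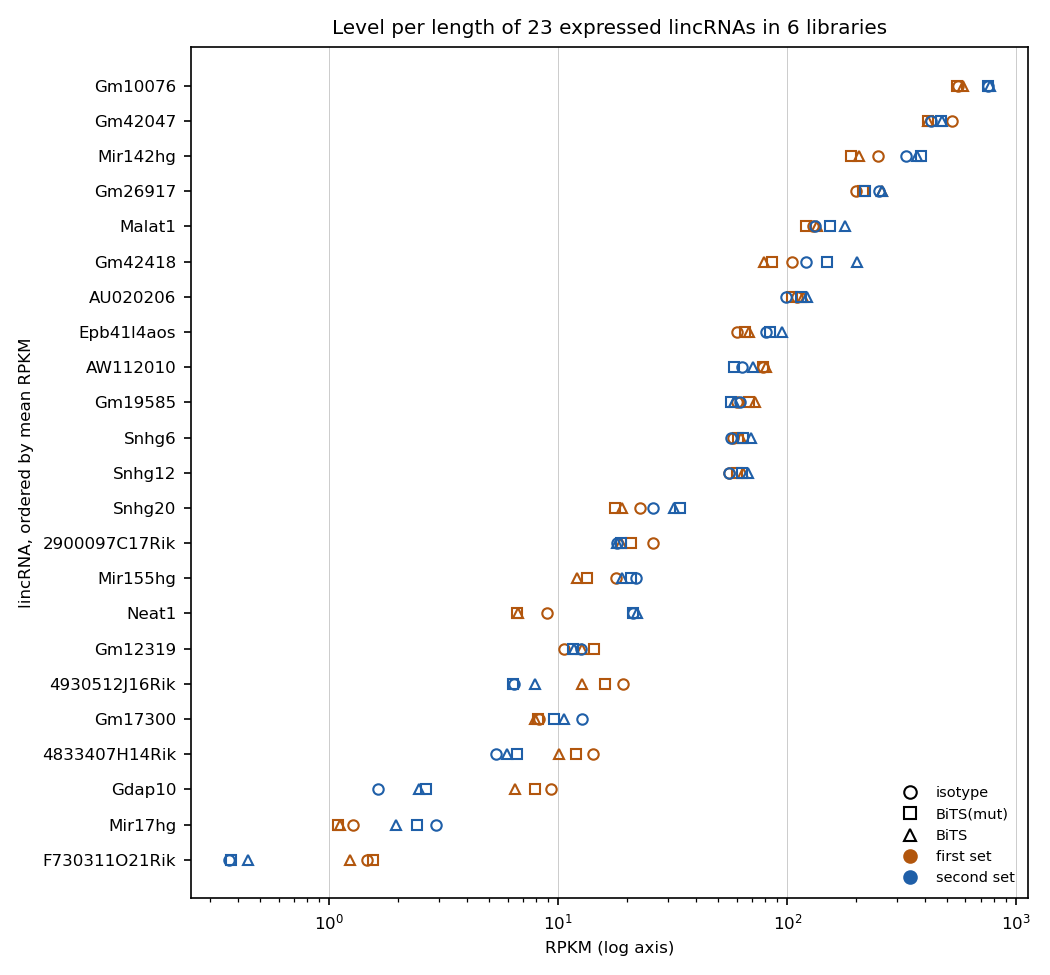
Level per length (RPKM, log axis) of 23 expressed lincRNAs in each of 6 libraries: the 20 with the highest mean RPKM, and Gdap10, Mir17hg and F730311O21Rik. Shapes mark treatments and colours mark the title-number sets. Gm10076 is at the top with a mean of 660 RPKM, and the points of Neat1, 4930512J16Rik, Gdap10, Mir17hg and F730311O21Rik fall into separate ranges by set.

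Per length, the order of the most abundant lincRNAs was led by rows whose reads may not be their own. Gm10076 (chromosome 14) had the highest mean, 660 RPKM, and its 384 bases are 99.5% identical over 383 bases to the messenger RNA of the ribosomal protein Rpl41, which itself had 1011 CPM. Gm42047 (chromosome 8) followed at 453 RPKM and took the most counts of any member, 2321 to 2967 CPM, and stretches of it are over 98% identical to Gm48362, Gm47939 and Gm43549. Its libraries did not order by set or by treatment: the highest value was in isotype replicate 1 and the lowest in BiTS(mut) replicate 2.

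How the counting treated overlaps was checked in the tables themselves. Of 442 rows whose exons lie wholly under exons of opposite-strand rows, 0 had any count, whereas 21209 of 39437 rows without overlap had counts. Of 1071 rows that lie wholly under exons of rows on either strand, 37 had counts, 450 in all. Among the 142 lincRNAs, 51 shared exon bases with a row on either strand, 32 of them over at least 10% of their exons and 9 over at least 50%, and 41 shared bases with an opposite-strand row. In the extreme, Gm42418 on chromosome 17, which lies under the ribosomal RNA row CT010467.1 and AY036118, has 9 exon bases under no other row, and Gm26656 on chromosome 6 has 1. The tables do not place reads on bases, so the RPKM of such rows may not be a level per length. A near-identical copy elsewhere was found for 13 lincRNAs, some of them also among the 51 (at least 95% identity over 200 bases or more), and reads of the copies could be split between them.

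Mir142hg followed at 288 RPKM over 269 exonic bases, and Gm26917, which neighbours Gm42418, was at 234 RPKM. Malat1 was at 142 RPKM, AU020206 at 111 RPKM, Epb41l4aos at 75.6 RPKM, AW112010 at 71.6 RPKM and Gm19585 at 63.0 RPKM. The snoRNA hosts Snhg6 and Snhg12 were close to each other, at 62.0 and 61.0 RPKM, with ranges over libraries that overlapped. Neat1 ranked 5 by counts at 300 CPM, but its row is 20771 bases long, so that its level per length was 14.4 RPKM, beside 17.5 RPKM for Mir155hg. M21 lists 4 Neat1 transcripts, which the row does not separate, so neither this value nor the set difference below belongs to 1 of them. Below these, Snhg20 was at 25.2 RPKM and Mir17hg at 1.80 RPKM.

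The lincRNAs were spread over 20 chromosomes and 21 of them consist of a single exon block. Their median length in the tables was 2420.5 bases, against 4193 for the protein-coding genes. The median distance from a lincRNA's start to the nearest protein-coding start was 17342 bases, 42 lay within 5000 bases of one, and 25 were divergent from a protein-coding gene, that is, started close to it and ran the other way. Intergenic by type, 21 nevertheless lay within the span of a protein-coding gene. Gdap10, for example, lies within Nampt on the same strand, so unspliced Nampt RNA could be counted for it.

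No treatment comparison called a lincRNA. The question of each comparison was how BiTS, BiTS(mut) and isotype differ in the activated T cells. With edgeR's quasi-likelihood test on treatment alone, 0 of 142 lincRNAs passed an adjusted p of 0.05 in BiTS against isotype, in BiTS against BiTS(mut) and in BiTS(mut) against isotype, where the background was 0% of 13996 genes in each. At an unadjusted p under 0.05 the numbers were 1, 0 and 0 lincRNAs. With the title-number set as a block the background rose to 3.4%, 0.972% and 0.05% of all genes, and again 0 lincRNAs passed. At an unadjusted p under 0.05 the numbers were then 17, 7 and 7 of 142 (11.97%, 4.93% and 4.93%), beside 14.8%, 8.45% and 4.43% of all genes. The 3 comparisons share libraries pairwise. DESeq2 and limma-voom without the block also called 0 lincRNAs in each comparison, and limma-voom with the block called 1, Malat1 in BiTS against isotype. With the block, the lincRNAs called for BiTS against isotype changed with the library left out. Without isotype replicate 1 they were AU020206, Snhg20, Gm42418, Malat1 and Mirt1. Without isotype replicate 4 they were others, among them Neat1, Mir155hg, Gdap10, Gm12606, Gm10827 and 1110002J07Rik. Leaving out either BiTS replicate also gave calls. Each such fit leaves 1 library in a group, so the number called is not read as a result. With the block, 6 of 16 dendritic cell markers were lower in BiTS than in isotype (median -0.33) and 5 of 16 lower than in BiTS(mut) (median -0.23). Of 10 T cell markers, 3 were higher in BiTS than in isotype (median 0.17) and 1 was lower than in BiTS(mut) (median 0.16). Without the block, 0 markers of either list were called. Their part in the lincRNA values was not tested.

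Malat1 came nearest to a call. It stood at 907 CPM in isotype replicate 1, 843 in BiTS(mut) replicate 2 and 939 in BiTS replicate 3, and at 925 in isotype replicate 4, 1074 in BiTS(mut) replicate 5 and 1253 in BiTS replicate 6. Within each set the BiTS library was the highest, and both isotype libraries lay below both BiTS libraries, while the BiTS(mut) libraries lay on either side. The log2 fold change of BiTS over isotype was 0.27 ± 0.08 (SE) with the block (edgeR, adjusted p = 0.0567) and 0.29 ± 0.22 without it (adjusted p = 0.99999). Set by set, the log2 ratio of TMM-scaled CPM (library totals rescaled by the trimmed mean of M-values, as in the fit) was 0.10 for replicates 1 and 3 and 0.44 for replicates 4 and 6.

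Other lincRNAs with low blocked p-values were chosen after their values were seen. 1110002J07Rik, of no assigned function, had 15.4 CPM in isotype, 14.1 in BiTS(mut) and 9.12 in BiTS in the first set and 10.6, 11.9 and 8.23 in the second. The BiTS library was the lowest in each set and the BiTS values did not overlap those of the other groups. Its blocked log2 fold change was -0.55 ± 0.17 against isotype (edgeR, adjusted p = 0.0656) and -0.57 ± 0.17 against BiTS(mut) (adjusted p = 0.103).

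Gm26530, which overlaps the RNA cyclase gene Rtca on the opposite strand over 12.1% of its exons, had 3.18, 2.16 and 1.26 CPM in isotype, BiTS(mut) and BiTS of the first set and 3.42, 2.52 and 1.76 CPM in the second. The order of treatments was the same in both sets and the ranges of isotype and BiTS did not overlap, but the blocked log2 fold change of -1.11 ± 0.36 did not pass (edgeR, adjusted p = 0.0790). Gm10827, whose start lies 55 bases from that of Ccdc28a and points away from it, had 16.2 CPM in isotype and 27.9 CPM in BiTS in the first set, and 17.6 and 17.8 CPM in the second, so that the difference lay in the first set. Its blocked value was 0.46 ± 0.15 (edgeR, adjusted p = 0.0811). The snoRNA host Snhg12 had 90.8, 98.2 and 104 CPM in the first set and 90.3, 103 and 109 CPM in the second, in the order isotype, BiTS(mut), BiTS, and a blocked value of 0.26 ± 0.09 (adjusted p = 0.0901).

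Neat1, Mir155hg and Mir17hg gave no call between treatments either. Their blocked log2 fold changes of BiTS over isotype were -0.15 ± 0.09, -0.35 ± 0.13 and -0.39 ± 0.22 (edgeR, adjusted p = 0.448, 0.139 and 0.440). Over all 142 lincRNAs the median blocked log2 fold change was 0.05 for BiTS against isotype, 0.06 for BiTS against BiTS(mut) and -0.06 for BiTS(mut) against isotype, beside 0.00 for all genes in each. The sign of BiTS against isotype was the same in both sets for 66 of 142 lincRNAs (46.5%, beside 56.1% of all genes), of BiTS against BiTS(mut) for 81 (57.0%, beside 56.6%) and of BiTS(mut) against isotype for 65 (45.8%, beside 49.1%).

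**Figure D2:**
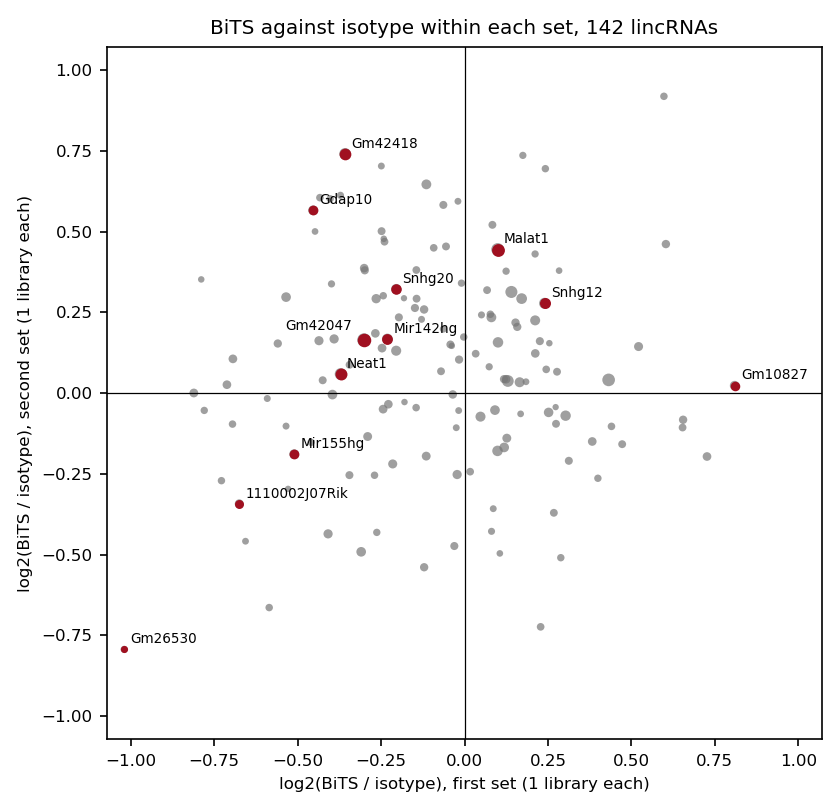
Log2 ratio of BiTS to isotype (TMM-scaled CPM) for 142 lincRNAs within the first set (horizontal axis) and within the second (vertical axis), each from 1 library per treatment, with point size growing with mean CPM and named genes in red. Points scatter over all 4 quadrants, 66 with the same sign in both sets. Malat1 (0.10 and 0.44), Snhg12, 1110002J07Rik and Gm26530 lie in quadrants of equal sign, and Gm42418 (-0.36 and 0.74) does not.

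The lincRNAs differed far more between the title-number sets than between treatments. In a fit with treatment and set as terms, 58 of 142 (40.8%) passed an adjusted p of 0.05, 39 higher and 19 lower in the second set, against a background of 52.7% of 13996 genes (25.9% higher and 26.9% lower) and 57.8% of the protein-coding genes that met the same minimum. In this fit the libraries of a set serve as its replicates, though the labels do not say whether they are independent. The p-values between the sets thus measure scatter within sets. With 2 residual and 45.9 prior degrees of freedom, the spread used for a gene was mostly borrowed from other genes. The rule asks for 1 CPM in every library, so lincRNAs that were near 0 in a set could not be members. Of the 58, 15 differed by at least 2-fold, a size for which no share of all genes is given here. The TMM-scaled values of the sets did not overlap for 73 of 142 lincRNAs (51.4%), beside 55.7% of all genes tested. The median log2 difference of the lincRNAs was 0.20, beside 0.02 for all genes.

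These directions are relative to the other genes. Scaled to the ERCC spike-ins, the median of all genes moved from 0.02 to -0.74 and that of the lincRNAs from 0.20 to -0.55. Under this scaling 38 lincRNAs were called, 2 higher (Neat1 and Gm26812) and 36 lower. The share of all genes called under it is not given here, so these counts cannot be set apart from the shift of all genes. Of the 58, 36 kept their sign in every alternative run and 22 did not. With only the 83 lincRNAs that share no exon base with another row and have no near-identical copy, 34 (41.0%) were called, 21 higher and 13 lower. This stands beside 52.7% of all genes in the same fit. The summed markers of dendritic cells and macrophages given above fell with the same contrast: 14 of 16 dendritic cell genes tested were lower and 1 higher (median -1.03). Only 6 of the 14 macrophage and monocyte genes could be tested, and 5 of these were lower (median -1.53). Of 10 T cell markers, 6 were higher and 1 lower (median 0.27), which under spike-in scaling became 0 higher and 2 lower. Their part in the lincRNA differences was not tested.

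**Figure D3:**
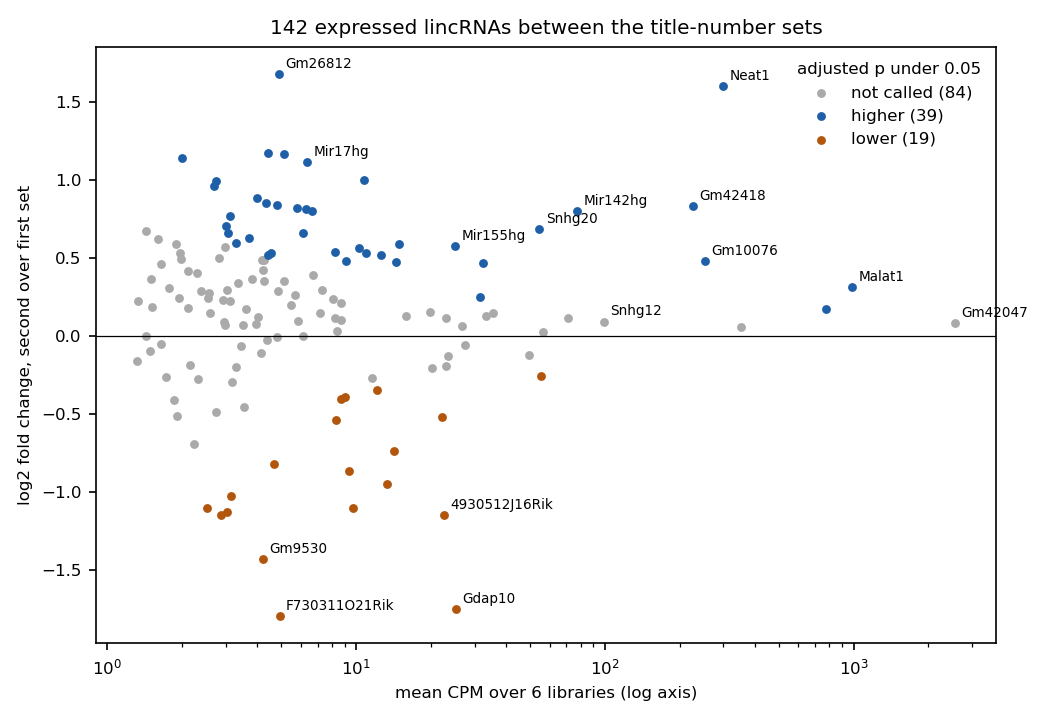
Log2 fold change of the second over the first set against mean CPM (log axis) for 142 lincRNAs, with those called higher in blue (39), lower in orange (19) and not called in grey (84). Neat1, with 300 CPM, is at 1.60. Scaled to spike-ins, the median of the lincRNAs moves to -0.55, and Malat1, Snhg20, Mir155hg and Gm10076 change sign.

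Neat1, the architectural RNA of paraspeckles (chromosome 19, 5824708 to 5845478, minus strand), had the lowest p-value of the lincRNAs between the sets. In the first set it stood at 185 CPM in isotype, 136 in BiTS(mut) and 138 in BiTS. In the second set it stood at 441, 441 and 457 CPM. The sets were far apart under every treatment, by 1.33, 1.72 and 1.76 on the log2 scale of TMM-scaled CPM in isotype, BiTS(mut) and BiTS, and the fitted difference was 1.60 ± 0.07 (edgeR, adjusted p = 4.06e-23). It was called in every alternative run, spike-in scaling included.

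Malat1, its neighbour on the same strand (5795690 to 5802672), moved less. Its second set values of 925 to 1253 CPM lay within or above the 843 to 939 CPM of the first. In TMM-scaled CPM the second set was higher by 0.11 on the log2 scale in isotype and by 0.45 in BiTS. After adjustment for treatment the difference was 0.31 ± 0.07 (edgeR, adjusted p = 0.000110), and it became -0.45 under spike-in scaling.

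Genes for proteins that work in the same bodies were called in both directions, at shares to be read beside 25.9% of all genes higher and 26.9% lower. Of 20 paraspeckle protein genes, 7 were higher and 5 lower (median 0.07), with Nono, a core paraspeckle protein, at -0.26 ± 0.07. Of 20 nuclear speckle and splicing factor genes, 6 were higher and 2 lower (median 0.06). The spike-in scaling gave 0 higher in both lists. Between treatments with the block, 1 of the speckle and splicing genes was called, Clk1. It was higher in BiTS than in isotype (0.48 ± 0.08, edgeR, adjusted p = 0.000186), beside 1.81% of all genes higher. The paraspeckle list had 0 treatment calls, and without the block both lists had 0.

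Of the 7 microRNA hosts, 4 were called higher in the second set and 0 lower, beside 25.9% of all genes higher and 26.9% lower. Mir17hg had 4.47, 3.87 and 3.93 CPM in isotype, BiTS(mut) and BiTS of the first set and 10.4, 8.54 and 6.94 CPM in the second, a difference of 1.11 ± 0.18 (edgeR, adjusted p = 1.16e-06). Mir142hg had 67.1, 51.3 and 55.2 CPM in the first set and 88.7, 103 and 99.1 CPM in the second, 0.80 ± 0.08 (adjusted p = 1.10e-11). Neither overlapped between the sets, and both kept their sign but not the call under spike-in scaling.

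Mir155hg had 25.7, 19.1 and 17.3 CPM in the first set and 31.3, 29.9 and 27.3 CPM in the second. The sets did not overlap, and in each of them the isotype library was the highest and the BiTS library the lowest, a treatment order that was not called above. The difference between the sets was 0.58 ± 0.10 (edgeR, adjusted p = 8.02e-06), and -0.18 under spike-in scaling. Snhg20, which carries both a snoRNA-host name and the microRNA gene Mir6516, had 49.1, 38.2 and 41.1 CPM in the first set and 55.9, 73.5 and 69.6 CPM in the second, 0.69 ± 0.09 (adjusted p = 1.24e-08), or -0.08 under spike-in scaling. The other hosts, Ftx at 0.35 ± 0.20, 2900076A07Rik at -0.01 ± 0.20 and 6720427I07Rik at 0.53 ± 0.31, were not called.

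The 6 lincRNAs that host snoRNA genes in M21 were split. Snhg12 (0.09 ± 0.07) and Snhg6 (0.12 ± 0.07) were not called between the sets, and their libraries overlapped. Also not called were 2700038G22Rik (0.30, edgeR, adjusted p = 0.132) and 2900076A07Rik (above). Snhg20, given above as a microRNA host, was called higher. Epb41l4aos, which hosts 1 small nucleolar RNA gene, had 26.0 to 29.2 CPM in the first set and 34.9 to 40.6 CPM in the second, 0.47 ± 0.09 (edgeR, adjusted p = 3.67e-05), turning to -0.29 under spike-in scaling. In the wider list of snoRNA host genes, which holds 4 of the 142 and Gas5, 12 of 19 tested were higher and 1 lower (median 0.32), beside 25.9% and 26.9% of all genes, whereas spike-in scaling gave 0 higher, 2 lower and a median of -0.45. Gas5 itself went from 612 to 631 CPM in the first set to 755 to 807 CPM in the second, 0.40 ± 0.06 (edgeR, adjusted p = 1.33e-06), and -0.37 under spike-in scaling. Treatment called none of these 19 genes, with or without the block.

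Other lists are given beside the same 25.9% of all genes higher and 26.9% lower. Of 18 nonsense-mediated decay factors, 7 were higher and 6 lower (median 0.02), and of 17 genes of the nuclear exosome and its adaptors, 8 were higher and 3 lower (median 0.08), with 0 higher in either list under spike-in scaling. Of 11 genes of X inactivation, 2 were higher and 5 lower (median -0.14), and of 14 p53 targets, 3 were higher and 5 lower (median -0.18). The lincRNA p53 target Trp53cor1 (lincRNA-p21) was at -0.20 ± 0.25 and was not called, as were Pvt1 (0.15 ± 0.11), Lockd (0.07 ± 0.10) and Dubr (0.15 ± 0.09). Between treatments with the block, 1 of the 14 p53 targets was lower in BiTS than in isotype, beside 1.59% of all genes.

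**Figure D4:**
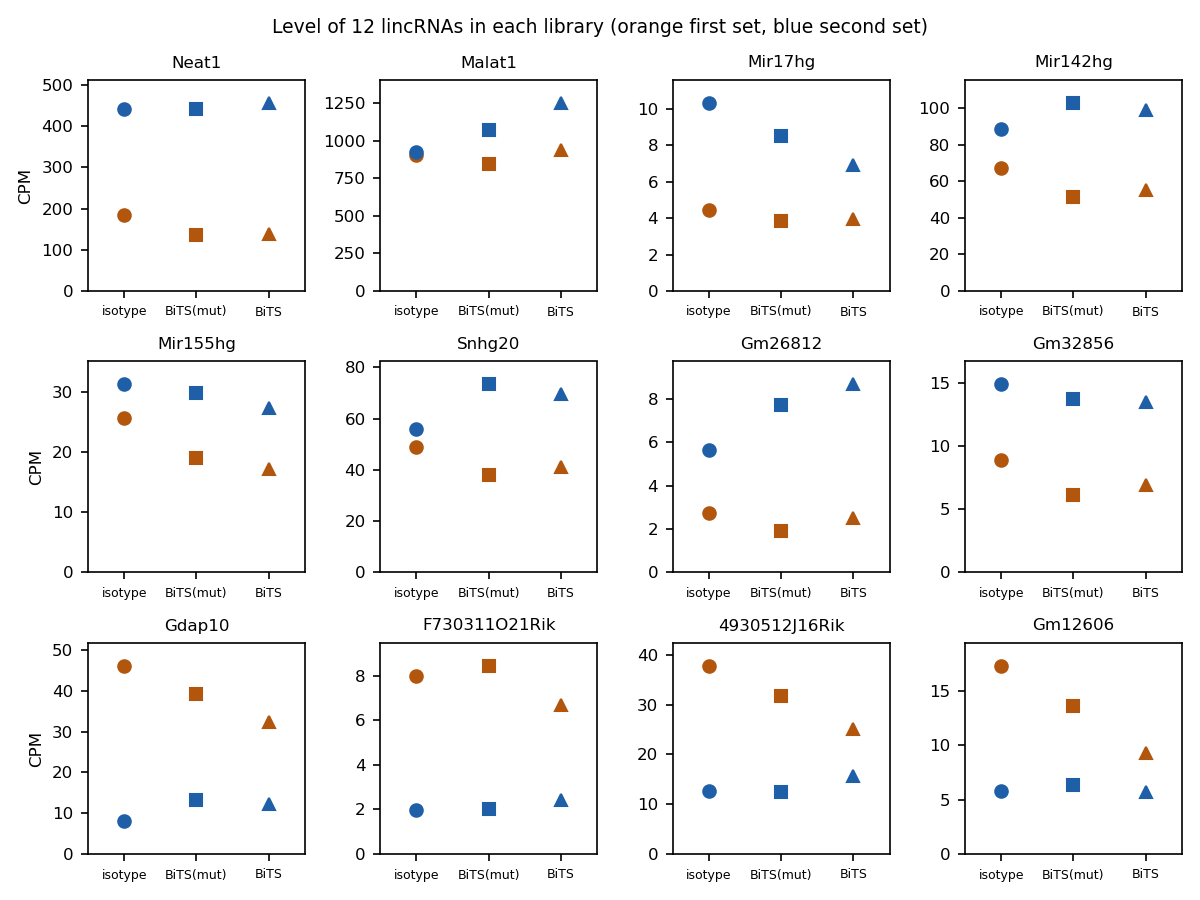
CPM of 12 lincRNAs in each of the 6 libraries, with 1 panel per gene and axes from 0. Treatments are along the horizontal axis, with the first set in orange and the second in blue. For Neat1 and Mir17hg every blue point is above every orange point, and for Gdap10 and F730311O21Rik every blue point is below. Scaled to spike-ins, Malat1, Mir155hg and Snhg20 reverse.

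The 8 largest increases among called lincRNAs of at least 2 CPM were led by Gm26812 on chromosome 8, beside Gm42047. Gm26812 had 2.75, 1.90 and 2.52 CPM in the first set and 5.67, 7.73 and 8.69 CPM in the second, and its difference of 1.68 ± 0.22 (edgeR, adjusted p = 1.11e-08) held in every alternative run. After it and Neat1 came Gm26804 (1.17 ± 0.22), Gm26656 (1.17 ± 0.21, with 1 exon base under no other row), Mir17hg, Gm32856 (0.998 ± 0.144, with near-identical stretches in 2 other lincRNAs), Gm44175 (0.99 ± 0.27) and E230001N04Rik (0.96 ± 0.27). Apart from Neat1 and Gm26812, these lost their call under spike-in scaling, Gm44175 and E230001N04Rik also without BiTS(mut) replicate 5, and the latter with DESeq2 and without BiTS(mut) replicate 2. Gm42418 was 0.83 ± 0.09 (adjusted p = 2.64e-10), with all but 9 of its exon bases under other rows, as above. Gm10076, the Rpl41 look-alike, was 0.48 ± 0.07 (adjusted p = 4.96e-08), or -0.28 under spike-in scaling. Of the remaining abundant lincRNAs, Gm26917 (0.17 ± 0.07, adjusted p = 0.0332) lost its call when any of isotype replicates 1 and 4 or BiTS(mut) replicates 2 and 5 was left out, with DESeq2, with set as the only term, with library totals alone, without a filter on low counts and under spike-in scaling, and Gm42047 (0.08 ± 0.07), AU020206 (0.06 ± 0.07) and Gm19585 (-0.12 ± 0.09) were not called.

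F730311O21Rik and Gdap10 led the decreases. F730311O21Rik (chromosome 1, 132342023 to 132349626, plus strand) had 7.99, 8.47 and 6.67 CPM in the first set and 1.98, 2.03 and 2.40 CPM in the second, a difference of -1.80 ± 0.22 (edgeR, adjusted p = 1.64e-09). Gdap10 (chromosome 12, 32821872 to 32826904, plus strand) had 46.2, 39.4 and 32.5 CPM in the first set and 8.19, 13.2 and 12.3 CPM in the second, -1.75 ± 0.13 (adjusted p = 2.09e-16). In both, no library of the second set reached the lowest of the first.

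Next came Gm9530 (-1.43 ± 0.23), 4930512J16Rik (-1.15 ± 0.12), Gm35040 (-1.15 ± 0.28), Gpr141b (-1.13 ± 0.27), Gm4349 (-1.10 ± 0.30) and Gm12606 (-1.10 ± 0.16). Spike-in scaling, which moves all genes down, could only enlarge these. All of them were called in every alternative that tested them except Gm4349, which was lost without BiTS(mut) replicate 2 and shares a stretch of 645 bases with the histone methyltransferase gene Setdb1 at 99.4% identity. AW112010, an inflammation-induced transcript reported to be translated in macrophages, went from 60.1 to 62.5 CPM in the first set to 44.9 to 54.3 CPM in the second, -0.26 ± 0.08 (edgeR, adjusted p = 0.00599), a call that was lost without BiTS(mut) replicate 2 or 5.

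Lower lincRNAs often had a lower nearest protein-coding gene, at whatever distance it lay. Of the 19 lower lincRNAs, the nearest protein-coding gene was lower for 11, higher for 3, not called for 2 and not tested for 3. Of the 39 higher lincRNAs it was higher for 11, lower for 10, not called for 11 and not tested for 7, and of the 84 that were not called it was higher for 17 and lower for 20. These counts stand beside 25.9% of genes higher and 26.9% lower, and neighbouring lincRNAs can share a gene.

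**Figure D5:**
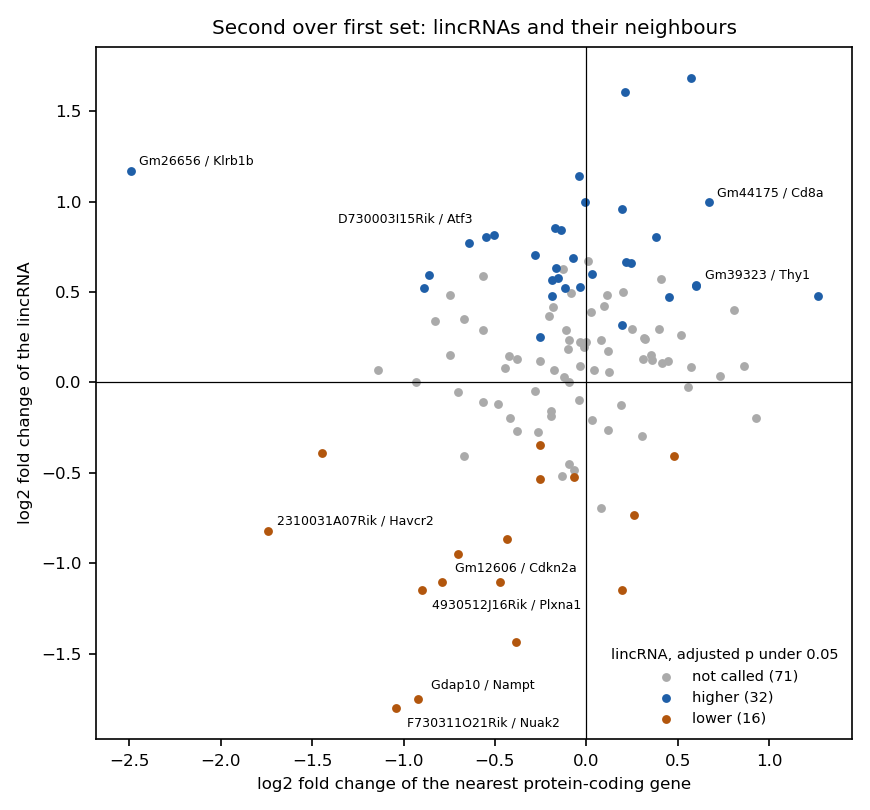
Log2 fold change of the second over the first set for a lincRNA (vertical axis) and its nearest protein-coding gene (horizontal axis), for the 119 lincRNAs whose neighbour was tested, coloured by the call of the lincRNA. Most lower lincRNAs (orange) sit to the left of 0, while higher lincRNAs (blue) sit on both sides. Scaling to spike-ins moves the median of all genes to -0.74, and so shifts both axes down.

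Among the lower pairs, Nampt, the NAD-synthesis enzyme around Gdap10, was at -0.92 ± 0.07, and Nuak2, a stress kinase beside F730311O21Rik, at -1.04 ± 0.12. Gm12606 lies 21250 bases from the start of the cell-cycle inhibitor Cdkn2a (-0.79 ± 0.08). Farther off, 4930512J16Rik starts 76895 bases from the semaphorin co-receptor Plxna1 (-0.90 ± 0.08). 4833407H14Rik (-0.95 ± 0.14) starts 68487 bases from the ERK phosphatase Dusp5 (-0.70 ± 0.07). 2310031A07Rik (-0.82 ± 0.21) starts 7687 bases from Havcr2, the inhibitory receptor TIM-3, which was at -1.74 ± 0.13. Each of these neighbours passed an adjusted p of 0.05, and this choice of pairs was made after their values were seen.

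The pairs with higher lincRNAs were likewise chosen with their values known. Gm44175 starts 12598 bases from the CD8 co-receptor gene Cd8a (0.67 ± 0.07). Gm39323 (0.54 ± 0.14) starts 2325 bases and Gm30373 (0.54 ± 0.16) 73131 bases from Thy1, the T cell surface marker (0.60 ± 0.07). The 11 higher lincRNAs with a higher neighbour also include Gm26812 beside Klhdc4 (0.57 ± 0.07) and Gm17300 beside Rcc1 (0.45 ± 0.07). Further ones are 2010110K18Rik beside Cdc25c (0.38 ± 0.10) and Neat1 beside Frmd8 (0.21 ± 0.07), and 10 higher lincRNAs had a lower neighbour. Gm39323 and Gm30373 turned to -0.23 and -0.22 under spike-in scaling, and lost their calls without BiTS(mut) replicate 2 or 5, Gm30373 also with DESeq2. Others opposed their neighbour: D730003I15Rik (0.82 ± 0.18) is next to the stress-response factor gene Atf3 (-0.51 ± 0.07), Lppos (0.77 ± 0.26) starts 81 bases from Lpp (-0.64 ± 0.10), Mir142hg is next to Tspoap1 (-0.55 ± 0.08) and Gm26656 next to the NK cell receptor gene Klrb1b (-2.49 ± 0.31). Lppos is -0.00 under spike-in scaling and lost its call with DESeq2 and without BiTS(mut) replicate 2, BiTS(mut) replicate 5 or BiTS replicate 6.

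Promoter sequence was looked at for lincRNAs that moved together. RefSeq's GRCm38.p6 promoter table (250 bases before to 50 after the start) held 75 of the 142 by symbol, and 49 had a start within 100 bases of the M21 start, 13 of them higher, 7 lower and 29 not called between the sets. On either strand, the sequence GAGGAAGT, a binding word of the myeloid and B cell factor PU.1, occurred in 14.3% of the 49 and in 3.20% of 32817 promoters of the same length, and in 2 of the 7 lower lincRNAs, 1 of the 13 higher ones and 4 of the 29 not called. The ETS word CCGGAAG occurred in 26.5% of the 49 and 8.86% of all, in 5 of the 13 higher, 0 of the 7 lower and 8 of the 29 not called. The AP-1 word TGANTCA occurred in 10.2% of the 49 and 7.81% of all, in 3 of the 13 higher, 0 of the 7 lower and 2 of the 29 not called. More words were searched than are given here. Among them, the E-box CACGTG occurred in 2 of the 7 lower, 1 of the 13 higher, 1 of the 29 not called and 7.15% of all. The ratio of observed to expected CG pairs had a median of 0.595 in the 49 and 0.383 in all promoters. Its part in the share of CCGGAAG, which holds a CG pair, was not tested. These are matches of letters, and binding was not measured.

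The promoters of the 2 lower lincRNAs with the PU.1 word are shown because both fell with their nearest protein-coding gene, and that of D730003I15Rik as a higher lincRNA with the ETS word. For 4833407H14Rik that gene, Dusp5, starts 68487 bases away. In M21, 4833407H14Rik shares 1008 exon bases with the lincRNA Mirt1 on the opposite strand. Mirt1 also has the PU.1 word and the same nearest gene, and was not called between the sets (-0.05, edgeR, adjusted p = 0.699). Capitals mark the word on either strand. The windows are chr1:132341834-132342133, chr19:53460372-53460671 and chr1:191224204-191224503 on GRCm38.p6, each on the plus strand.
F730311O21Rik: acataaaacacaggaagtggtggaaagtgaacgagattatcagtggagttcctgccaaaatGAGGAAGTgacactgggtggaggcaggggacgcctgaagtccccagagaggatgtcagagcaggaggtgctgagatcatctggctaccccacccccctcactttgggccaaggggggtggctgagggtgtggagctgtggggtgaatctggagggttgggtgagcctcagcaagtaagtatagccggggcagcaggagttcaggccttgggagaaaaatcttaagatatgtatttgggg
4833407H14Rik: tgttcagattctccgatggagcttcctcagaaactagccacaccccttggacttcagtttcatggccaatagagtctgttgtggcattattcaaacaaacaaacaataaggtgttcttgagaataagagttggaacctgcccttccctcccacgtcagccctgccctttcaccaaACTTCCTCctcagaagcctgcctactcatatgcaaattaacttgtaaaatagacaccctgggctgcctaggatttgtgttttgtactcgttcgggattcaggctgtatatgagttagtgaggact
D730003I15Rik: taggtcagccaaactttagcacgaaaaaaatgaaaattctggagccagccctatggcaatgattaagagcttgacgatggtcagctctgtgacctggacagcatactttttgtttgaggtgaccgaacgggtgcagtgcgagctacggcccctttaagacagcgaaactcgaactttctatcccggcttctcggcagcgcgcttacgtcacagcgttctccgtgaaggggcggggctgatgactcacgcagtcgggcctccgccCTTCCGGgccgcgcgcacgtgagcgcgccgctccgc
The 3 windows hold 3, 4 and 28 CG pairs, in this order.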

How the data were processed

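Bulk RNA-seq libraries were sequenced at a service provider from RNA of 6 samples, per the labels' protocols. The authors deposited raw counts per gene, 1 table per library, with each gene's exon intervals and length, per the file headers. The submitters' processing notes name mm10 and DESeq2; the aligner, counter and strand setting do not appear in the sources used here. Gene types and symbols came from GENCODE M21, which held 49412 of 49671 gene rows; 125 of the 142 lincRNAs had the same coordinates there. Gene totals were 10813123 to 15239077 counts.

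The 142 lincRNAs, gene lists and comparisons were chosen with earlier results of these data known. CPM is the count over the library's gene total, and RPKM divides it by the tables' length. Counts were tested with edgeR 4.0.16 (filterByExpr, TMM scaling, quasi-likelihood test, Benjamini-Hochberg adjustment over all 13996 genes tested, threshold 0.05), for treatments in a model of treatment alone and for sets in a model of treatment and set; ± is the standard error of the log2 fold change. The title numbers pair no libraries by label. Libraries of a set deviated together from their treatment means (correlations of 0.763, 0.703 and 0.780 over 13996 genes for the 3 pairs), and the set was added as a block as an alternative. Replicates of a treatment differed by more than sampling noise. Log2 ratios of single libraries, within a set or between the sets, used TMM-scaled CPM with a pseudocount of 0.5. The code was tested on simulated counts.

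Genes named are Malat1, Neat1, the Snhg lincRNAs, the 10 highest by RPKM, those called between treatments and those at the minimum of 1 CPM. To these come the 8 largest increases and 8 largest decreases between sets among called lincRNAs of at least 2 CPM. Others belong to the microRNA hosts or gene lists, or were chosen with their values known. Near-identical copies were found with blastn 2.17.0. Alternatives were other scalings, filters, DESeq2 1.42.0, limma-voom 3.58.1 and leaving out each library.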

Additional observations from a re-analysis of the deposited data

Results flagged for a closer look

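For some lincRNAs a treatment difference ran in opposite directions in the 2 title-number sets, each beyond its counting error at 95%. Every set holds 1 library per treatment, so whether the sets differ in their response was not tested, and counting error leaves out the spread between replicates. Only the lincRNAs were checked, so no share of all genes stands beside the numbers below. Counting error is smallest for rows with many counts, which pass this check most easily. The numbers are therefore not read as a trait of the lincRNAs. For BiTS against isotype this held for 6 of 142: the log2 ratio of TMM-scaled CPM in the first and second sets was -0.37 and 0.059 for Neat1, -0.45 and 0.57 for Gdap10, -0.23 and 0.17 for Mir142hg, -0.36 and 0.74 for Gm42418, -0.20 and 0.32 for Snhg20, and -0.30 and 0.16 for Gm42047.

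For BiTS(mut) against isotype, which shares the isotype libraries, it held for 7: the ratios were -0.19 and 0.64 for Gdap10, -0.35 and 0.21 for Mir142hg, -0.26 and 0.30 for Gm42418, -0.32 and 0.38 for Snhg20, -0.07 and 0.20 for Malat1, 0.15 and -0.22 for Gm26917, and -0.32 and 0.13 for Gm42047. For BiTS against BiTS(mut) it held for 2, at -0.32 and 0.33 for 4930512J16Rik and -0.10 and 0.44 for Gm42418. Gm42418 appears in all 3 comparisons, and all but 9 of its exon bases lie under other rows.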

How the results depend on the processing

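No treatment comparison called a lincRNA in any alternative without the block. With the set as a replicate block, BiTS against isotype gave 1 call with limma-voom (Malat1), 2 without a filter on low counts (Gm26530 and Malat1), and 0 to 10 when a library was left out: 5 without isotype replicate 1, 2 without BiTS replicate 3 (Gm42418 and Mirt1), 10 without isotype replicate 4 and 1 without BiTS replicate 6 (Gm10827). In the same way BiTS against BiTS(mut) gave 0 to 3 calls (3 without either isotype replicate, namely 1110002J07Rik, Gm26917 and Malat1, and Gm42418 without BiTS replicate 3), and BiTS(mut) against isotype 0 to 3 (Gm42418 without isotype replicate 1, and Gm42047, Gm42418 and Neat1 without replicate 4). Leaving out a library leaves 1 in its group, which is then assumed to vary like the others. For these alternatives with the block, the share of all genes called is not given here, so the counts are not read as a result. Blocked DESeq2 gave no adjusted p for 82 and 91 lincRNAs in the first 2 comparisons.

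Between the sets, 58 lincRNAs were called, 42 to 60 when a library was left out, 42 by DESeq2, 53 with no replicate block (set alone), 38 scaled to ERCC spike-ins and 34 among those free of overlaps and copies, a choice made after seeing the data that counts fewer genes. The background of 52.7% of all genes belongs to the main fit, which gave the 58 and the 34. The share of all genes called in the other runs is not given here. Their counts are therefore not read as a result about the lincRNAs. Spike-in scaling reversed Malat1 (-0.45), Snhg12 (-0.67), Snhg6 (-0.65), Snhg20 (-0.081), Gm10076 (-0.28), Gm42047 (-0.68), Gm26917 (-0.59), AU020206 (-0.70), Epb41l4aos (-0.29), Mir155hg (-0.18), Gm39323 (-0.23), Gm30373 (-0.22) and Lppos (-0.0043). It moves all genes down; the cause was not tested. With a library left out, Gm42047 ran from -0.0051 to 0.23 and AU020206 from -0.00012 to 0.12. The mean share of counts in the lincRNAs fell from 0.688% to 0.589% without Malat1. Depth limits the faint lincRNAs: 1 CPM is 10.8 to 15.2 counts in a library.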
